A study of Mus musculus with 4 samples.

Results

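The 9 genes described here are the hedgehog ligands Shh and Ihh, the receptors Ptch1 and Smo, the ligand-binding protein Hhip, the transcription factors Gli1, Gli2 and Gli3, and the homeobox gene Nkx2-9, chosen by symbol from the 22138 genes of the table. The question was whether Nkx2-9 moves with the hedgehog pathway. Nkx2-9 was singled out because its level differed between the groups in these same libraries, so the group differences of the 9 genes are given as a description and without p-values.

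RNA was sequenced from TT2 cells, a female line of mouse embryonic stem cells with a C57BL/6xCBA background, grown without feeder cells in serum and LIF, a cytokine that keeps such cells undifferentiated. Both groups came from the same line and differed only in the small interfering RNA (siRNA) they received, a control siRNA (n = 2) or an siRNA against Hnrnpk (n = 2). Hnrnpk encodes hnRNP K, a protein that binds C-rich RNA and DNA, and the series title links it to gene silencing by the histone methyltransferase SETDB1. Cells were transfected at 100 nM, transfected again 24 hours later at 50 nM, and harvested about 72 hours after that, so the model is a transient knockdown in 1 line. The submitters call the 2 libraries of each group biological replicates, and the sources used here do not say how the cultures were kept apart.

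Hedgehog ligands are secreted proteins that bind PTCH1, a membrane protein that otherwise holds the signal transducer SMO inactive. Once SMO is released it acts at the primary cilium, where the GLI proteins are turned from repressors into activators, GLI3 serving mainly as a repressor and GLI2 mainly as an activator. Gli1, Ptch1 and Hhip are themselves transcribed in response to the signal and are commonly read as its output. In the ventral neural tube, hedgehog from the notochord and floor plate turns on a set of homeobox genes that includes Nkx2-2 and Nkx2-9. The ligands are known mainly from differentiated tissues, Ihh among others from visceral endoderm.

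The 250 bases before the annotated start are shown for Nkx2-9 and Smo, the members with the largest difference in each direction, to put the promoter letters beside the values. They are RefSeq sequences on GRCm38.p6, whereas the submitters' processing notes name mm9 for the reads, and a window was found for 7 of the 9 genes. The Nkx2-9 window is chr12:56613285-56613534 on the minus strand, with the core of the GLI binding site in capitals. The Smo window is chr6:29735247-29735496 on the plus strand, with runs of 5 or more C or G in capitals.
Nkx2-9: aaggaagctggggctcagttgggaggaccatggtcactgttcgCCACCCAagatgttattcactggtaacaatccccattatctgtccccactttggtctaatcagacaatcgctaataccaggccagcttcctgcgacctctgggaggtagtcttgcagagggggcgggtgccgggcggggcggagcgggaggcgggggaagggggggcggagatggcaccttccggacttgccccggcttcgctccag
Smo: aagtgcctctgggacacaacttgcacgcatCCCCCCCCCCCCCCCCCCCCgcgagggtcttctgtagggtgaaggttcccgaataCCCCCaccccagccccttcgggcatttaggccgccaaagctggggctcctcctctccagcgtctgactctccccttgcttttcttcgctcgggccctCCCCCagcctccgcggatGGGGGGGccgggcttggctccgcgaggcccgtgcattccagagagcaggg

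The GLI site was searched as GACCACCCA and as its core CCACCCA, which lies inside it, on both strands. The Nkx2-9 window held the core 1 time and the whole site 0 times. Neither was found in the windows of Ihh, Ptch1, Smo, Gli2, Gli3 and Hhip. Over all 32817 windows of this length, 8.11% held the core and 0.225% the whole site. The letters CCCCC, on either strand, were present in all 7 windows and in 47.2% of all windows. The Smo window contained a run of 20, a length reached in 0.101% of windows. These are matches of letters in a reference and say nothing of binding in these cells.

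The values were RPKM, mapped reads scaled to transcript length and library size, so levels can be set side by side between genes. The 4 libraries summed to between 359659 and 390467 RPKM. The steps between low values gave depths of 0.982, 0.891 and 0.882 relative to control replicate 1. Hnrnpk itself read 236 and 226 RPKM with control siRNA against 68.0 and 70.5 with its own siRNA, in the direction of the labels. Setdb1 read 35.2 and 36.1 against 33.3 and 32.4 RPKM and was not called (log2 -0.12). All 10 embryonic stem cell markers in the table passed the filter, and Pou5f1, the pluripotency factor OCT4, lay between 245 and 301 RPKM in the 4 libraries.

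Nkx2-9 encodes a homeodomain transcription factor of the ventral neural tube. It was at 0.903 and 1.21 RPKM with control siRNA and at 18.8 and 21.0 RPKM after Hnrnpk siRNA. Both Hnrnpk siRNA libraries lay far above both controls. In bulk RNA, more cells that express a gene and more RNA per cell cannot be told apart. The group means were 1.05 ± 0.215 and 19.9 ± 1.61 RPKM (SD, n = 2 each), a ratio of 18.9. On the log2(RPKM + 0.5) scale, which understates changes of low genes, the difference was 3.72 (SE 0.107), ranking 5 among the 12486 genes tested when the highest is put first.

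Smo encodes the seven-pass membrane protein that carries the signal into the cell. It was at 18.6 and 17.7 RPKM in the control pair and at 7.65 and 7.79 RPKM after Hnrnpk siRNA. The groups were well apart, and the replicates of each almost coincided. The means were 18.2 ± 0.656 and 7.72 ± 0.0971 RPKM (SD, n = 2 each), a ratio of 0.425, and the log2 difference was -1.18 (SE 0.0694). Of the Smo transcript, 9.0% matches Gm4066 at 95% identity or more, so some of its reads may be shared.

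Ptch1, the receptor that restrains SMO and a target of the pathway, was the most abundant of the 9 genes with control siRNA. After Hnrnpk siRNA its libraries overlapped those of Nkx2-9. Its levels were 26.5 and 27.3 RPKM in the control libraries and 20.2 and 19.9 RPKM after Hnrnpk siRNA. The groups did not overlap. The log2 difference was -0.42 (SE 0.0628), and the ratio of means was 0.745.

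Hhip, which binds ligands at the cell surface and is induced by the signal, was low throughout. It was at 0.303 and 0.506 RPKM in controls and at 0.567 and 0.453 RPKM after Hnrnpk siRNA. The groups overlapped, and the gene was under the mean of 0.5 RPKM required for the test.

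Among the GLI factors, Gli3 showed the greatest difference, with 5.23 and 5.07 RPKM in the control libraries against 3.13 and 2.80 RPKM after Hnrnpk siRNA. The groups did not overlap, and the log2 difference was -0.71 (SE 0.0858). Gli2 was at 19.3 and 20.3 RPKM with control siRNA and at 18.2 and 16.1 RPKM after Hnrnpk siRNA. The gap between the nearest libraries of the groups was smaller than the spread of the Hnrnpk siRNA pair, and the log2 difference was -0.20 (SE 0.0766). Gli1, the GLI gene whose transcript is most directly read as pathway output, was at 15.6 and 17.2 RPKM in the control pair and at 17.6 and 18.9 RPKM after Hnrnpk siRNA. Its libraries did not overlap either, but the gap between the nearest libraries of the groups was smaller than the spread within either pair, with a log2 difference of 0.15 (SE 0.0747).

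**Figure D1:**
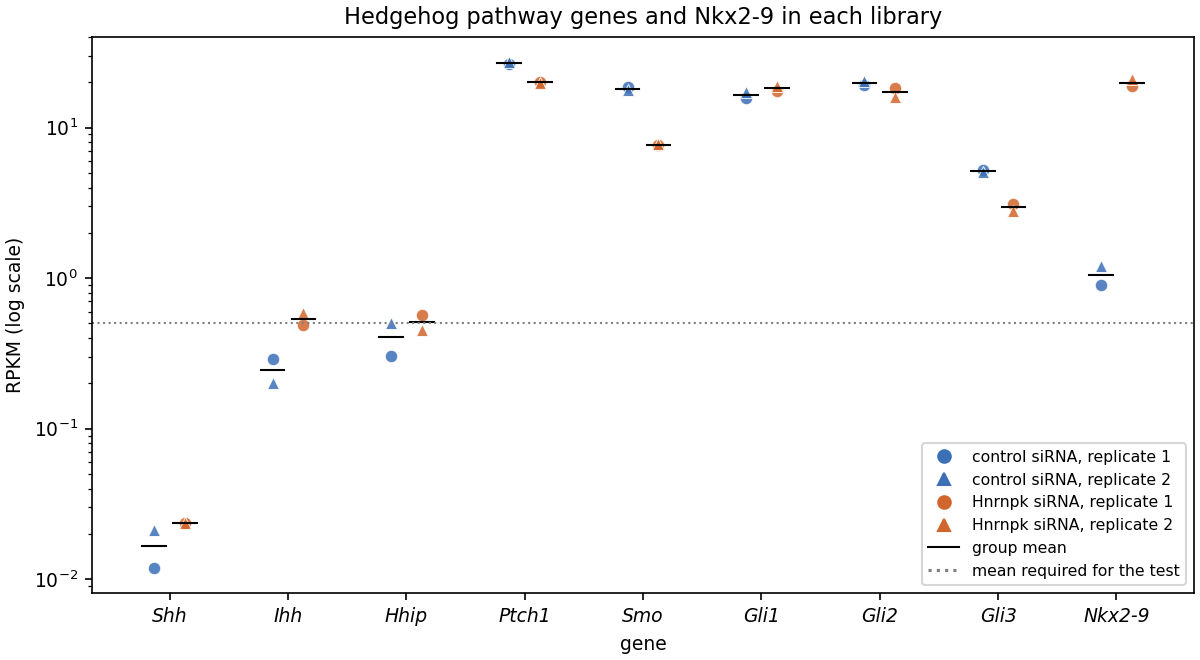
RPKM (log axis) of the 9 genes in each library, control siRNA in blue and Hnrnpk siRNA in orange, circles for replicate 1 and triangles for replicate 2, with the group mean as a black bar and the mean of 0.5 RPKM required for the test as a dotted line. Nkx2-9 went from 1.05 to 19.9 RPKM while Smo, Gli3 and Ptch1 were lower after Hnrnpk siRNA and Shh stayed under 0.03 RPKM in every library.

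The ligands were scarce. Shh was at 0.0120 and 0.0213 RPKM in controls and at 0.0235 and 0.0237 RPKM after Hnrnpk siRNA. Corrected for relative depth, these values stand as 4 to 7 to 7 to 7 within 1%, so as few as 4 and 7 reads may lie behind them, and a difference between the groups was not detectable at this depth. Exons of Shh also overlap 9530036O11Rik and Gm26894 on the other strand, over 15.7% and 12.7% of its exonic bases, and whether the libraries kept the strand is not stated in the sources used here. Ihh was at 0.292 and 0.203 RPKM with control siRNA and at 0.486 and 0.586 RPKM after Hnrnpk siRNA. Its groups did not overlap, with means of 0.247 ± 0.0632 and 0.536 ± 0.0706 RPKM (SD, n = 2 each), and it too was under the filter. The third ligand, Dhh, was at 0.289, 0.241, 0.174 and 0.158 RPKM in the same order of libraries, so no ligand exceeded 0.6 RPKM.

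Of the 9 genes, 6 passed the filter. All 6 had groups that did not overlap, as did 84.7% of all genes tested, and nothing is read from the count of members. Of all genes tested, 67.2% were called by limma (adjusted p under 0.05, Benjamini-Hochberg), 32.2% higher and 35.0% lower, and the median log2 difference over them was -0.015. The small differences of Gli2 and Gli1 moved with the processing. With trends on GC content removed, Gli2 was at -0.076 and Gli1 at 0.31. Without control replicate 2 they were at -0.17 and 0.22, and without Hnrnpk siRNA replicate 2 Gli2 was at -0.12.

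**Figure D2:**
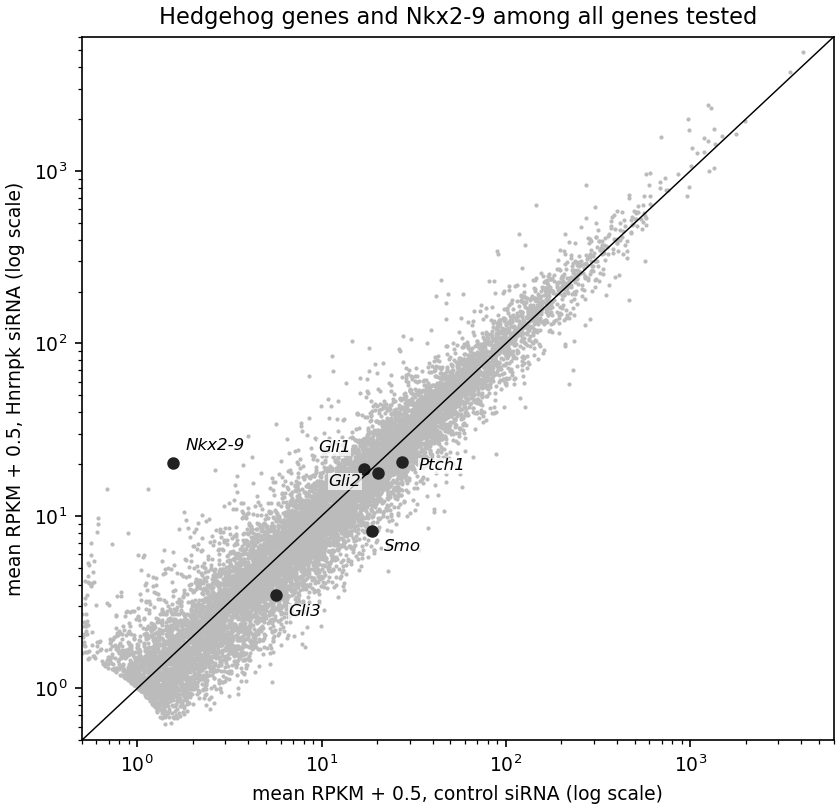
Mean RPKM + 0.5 after control siRNA (x) and after Hnrnpk siRNA (y), both on log axes, for the 12486 genes tested (grey) and the 6 tested hedgehog genes and Nkx2-9 (black, named), with the line of equal values. Nkx2-9 lies at the upper edge of the cloud at 19.9 against 1.05 RPKM, Gli1 and Gli2 lie near the line, and Smo and Gli3 lie below it.

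The order of the levels changed mainly through Nkx2-9 and Smo. In the control libraries the order by mean RPKM was Ptch1, Gli2, Smo, Gli1, Gli3, Nkx2-9, Hhip, Ihh and Shh, and no 2 neighbours in it overlapped between libraries. After Hnrnpk siRNA, Nkx2-9 stood at rank 2 behind Ptch1, and the libraries of Ptch1 and Nkx2-9, of Nkx2-9 and Gli1, and of Gli1 and Gli2 overlapped. Smo then stood apart at rank 5, below Gli2, and Ihh and Hhip overlapped. Nkx2-9 was thus at the level of Ptch1 and Gli1 after Hnrnpk siRNA, while Ptch1 was lower and Gli1 near its control level in the same libraries.

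By the distance between centred log2(RPKM + 0.5) values over the 4 libraries, the 8 genes most like Nkx2-9 lay at 0.175 to 0.510. They were Gm2016, Gm8300, Zscan4c, Vnn1, Dub1a, Gata6, Gm6189 and Zscan4d. This distance is set mainly by the group difference for which Nkx2-9 was singled out. No other member could therefore lie near Nkx2-9, and nothing is read from their absence. All 8 but Gata6 had control means up to 0.115 RPKM and passed the filter only through their level after Hnrnpk siRNA. Zscan4c, Zscan4d, Gm8300 and Dub1a belong to gene families of the two-cell embryo with near-identical copies, so their single values are uncertain. Gata6 encodes a primitive endoderm factor and Vnn1 a pantetheinase. The likeness rests on the added 0.5 RPKM: Gm2016 was at 0.0618 RPKM in the control libraries against 1.05 for Nkx2-9, and with an added 0.1 RPKM 0 of these 8 genes were among the nearest 8, with an added 1 RPKM 5. For Smo the nearest were Rerg, Pla2g1b and Abca2, at log2 differences of -1.18, -1.19 and -1.19.

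Other genes that make, release or receive the ligand went both ways. Of 11 examined in the table, 6 passed the filter, and 2 were called higher and 2 lower. Their share called was 66.7%, near the 67.2% of all genes tested (32.2% higher, 35.0% lower). The median log2 difference was -0.21 against -0.015 over all genes tested. Gpc3, a glypican that restrains hedgehog at the cell surface, fell from 34.9 and 29.6 to 11.3 and 11.2 RPKM (log2 -1.48, SE 0.0828, limma adjusted p = 7.06e-07). Gas1, a co-receptor, fell from 1.43 and 0.975 to 0.384 and 0.321 RPKM (log2 -0.98, adjusted p = 0.000124), and passed the filter only through its control level; the log2 difference was -1.50 with an added 0.1 RPKM.

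In the other direction, Scube3, a secreted protein of the family that helps release the ligand, rose from 2.89 and 2.43 to 8.16 and 7.83 RPKM (log2 1.43, SE 0.0925, limma adjusted p = 1.49e-06). Lrp2, the endocytic receptor megalin, rose from 2.38 and 3.51 to 7.62 and 7.17 RPKM (log2 1.22, adjusted p = 3.77e-05). The co-receptors Cdon and Boc were not called, at log2 differences of -0.20 and -0.22. The members under the filter were Dhh, Disp2, Hhat, Scube1 and Scube2, none above 0.495 RPKM in any library.

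Genes that act between SMO and GLI, some to carry the signal and others to restrain it, included more called lower than higher. All 28 in the table passed the filter, and 3 were called higher and 13 lower, with a median log2 difference of -0.12. Their share called, 57.1%, was below the 67.2% of all genes tested (32.2% higher, 35.0% lower). Since the list mixes both kinds of gene, the counts give no direction for the signal. Arrb1, a beta-arrestin that can bind SMO, fell from 5.74 and 5.02 to 1.60 and 1.56 RPKM (log2 -1.49, SE 0.0918, limma adjusted p = 1.14e-06). Evc, a ciliary partner of SMO, fell from 4.81 and 5.37 to 2.02 and 2.02 RPKM (log2 -1.15, SE 0.0877, adjusted p = 3.84e-06), and its partner Evc2 fell less, at -0.33.

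Dyrk2, Arrb2 and Adrbk1 (the kinase GRK2) fell by 0.72, 0.57 and 0.47 on the log2 scale. The kinases that keep GLI in check did not move together. Of protein kinase A, the regulatory subunit Prkar1a rose at 0.40, the catalytic subunit Prkaca fell from 58.3 and 55.2 to 44.5 and 44.9 RPKM (log2 -0.34, limma adjusted p = 0.000904), and Prkacb was not called at -0.12. Of casein kinase 1, Csnk1a1 rose at 0.53, while Csnk1d and Csnk1e were not called, at 0.010 and -0.12. Gnas, which encodes the stimulatory G protein subunit upstream of protein kinase A, rose at 0.48. Sufu, the cytoplasmic inhibitor of GLI, was not called, with 7.73 and 8.20 RPKM in the control libraries and 8.91 and 8.72 after Hnrnpk siRNA (log2 0.14, limma adjusted p = 0.122). Kif7, the ciliary kinesin that acts with it, fell at -0.37, and 19.1% of its exonic bases overlap an antisense gene. Other named genes that overlap a gene on the opposite strand include Gas1 (19.9%), Gnas (13.1%), Ccnd1 (23.4%) and Nkx6-2 (12.9%).

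The primary cilium genes went both ways. All 30 passed, with 11 called higher and 9 lower, and the median log2 difference was 0.11. Their share called was 66.7%, near the 67.2% of all genes tested. Wdr35, of the transport complex IFT-A, rose from 11.01 and 9.79 to 24.0 and 22.5 RPKM (log2 1.12, SE 0.0777, limma adjusted p = 2.17e-06). Ift20, Bbs7, Ttc8 and Ift46 followed at 0.79, 0.78, 0.78 and 0.57. Ift57, of IFT-B, fell from 5.99 and 5.58 to 2.70 and 2.63 RPKM (log2 -0.99, SE 0.0824, adjusted p = 6.51e-06), and Ttc21b, Ift172, Ift27 and Ift140 fell at -0.92, -0.72, -0.69 and -0.62. IFT-A had genes on both sides, Wdr35 higher and Ttc21b lower, and so did IFT-B, with Ift20 higher and Ift57 lower.

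**Figure D3:**
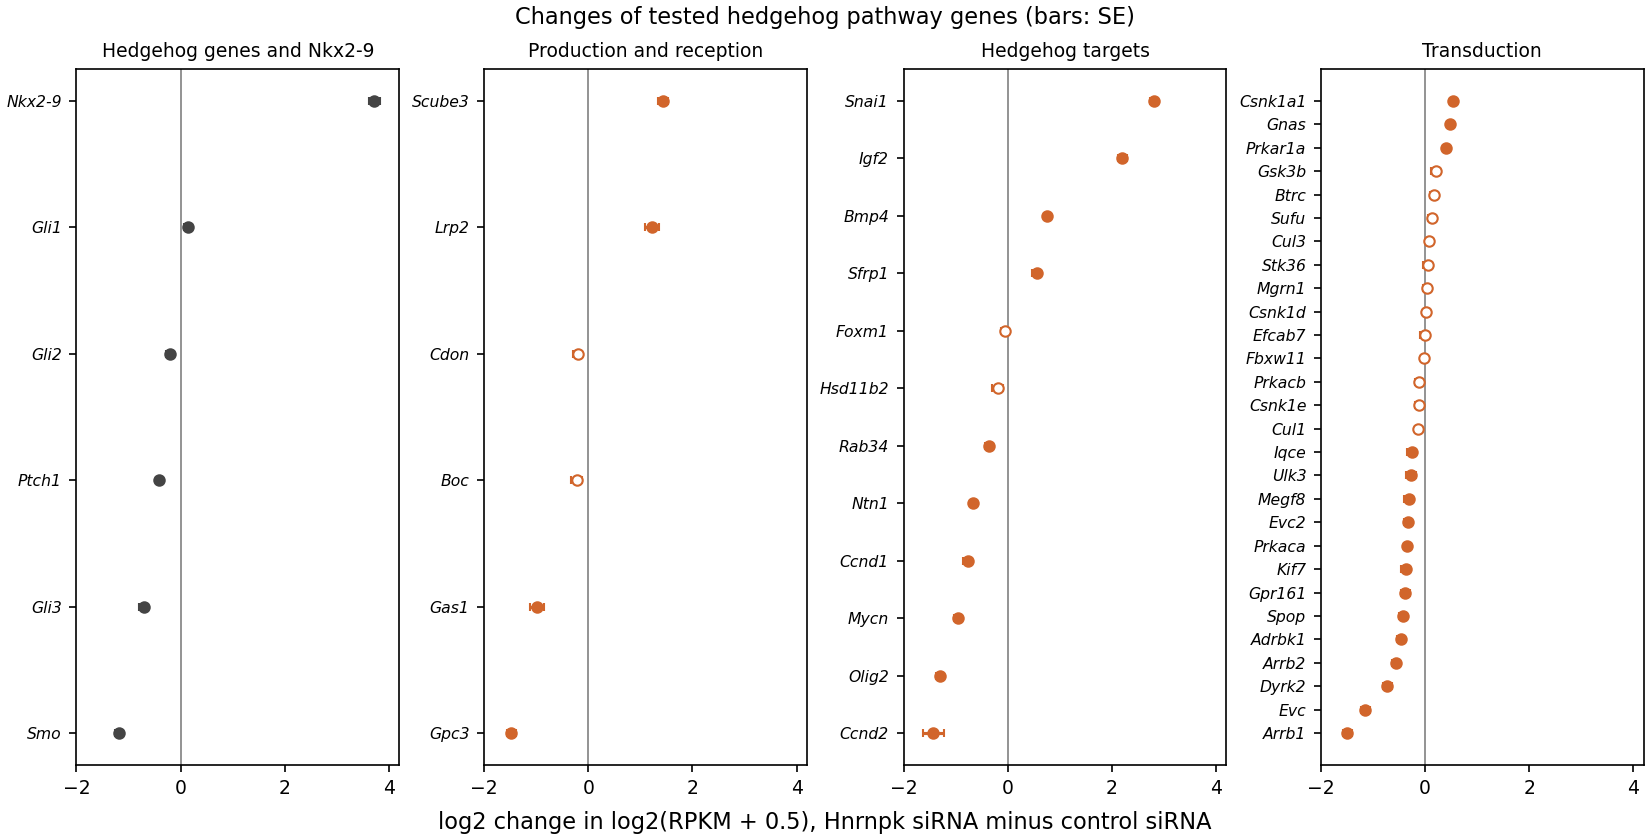
Log2 difference in log2(RPKM + 0.5), Hnrnpk siRNA minus control siRNA, with SE as bars, for tested hedgehog genes in 4 panels; in the 3 panels of other pathway genes, open circles did not pass the limma threshold and filled ones did, and in the first panel the members are shown in grey with no test. Nkx2-9 is at 3.72 and Smo at -1.18, targets run from -1.43 for Ccnd2 to 2.80 for Snai1, and most transduction genes lie within 0.6 of zero.

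Among genes known as hedgehog targets in other tissues, 12 of 21 examined in the table passed the filter, and 4 were called higher and 6 lower, with a median log2 difference of -0.28. The share called was 83.3% of 12 genes, against 67.2% of all genes tested (32.2% higher, 35.0% lower). Snai1, a transcription factor of epithelial-mesenchymal transition, rose from 2.18 and 2.13 to 17.8 and 18.2 RPKM (log2 2.80, SE 0.0743, limma adjusted p = 2.04e-08), the member nearest to Nkx2-9 in size. Igf2, a growth factor, rose from 0.847 and 0.934 to 5.82 and 5.93 RPKM (log2 2.20, adjusted p = 9.99e-08), and 62.8% of its exonic bases overlap another annotated gene on the same strand. Bmp4 and Sfrp1 rose at 0.76 and 0.56.

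The targets that fell included regulators of growth and of the ventral neural tube. Olig2, a factor of motor neuron and oligodendrocyte precursors, fell from 15.6 and 16.5 to 6.30 and 6.07 RPKM (log2 -1.31, SE 0.0721, limma adjusted p = 6.40e-07). Ccnd2, a G1 cyclin, fell from 7.31 and 13.1 to 3.26 and 3.41 RPKM (log2 -1.43, SE 0.199, adjusted p = 0.000167), with control libraries that lay far from each other. Mycn, a MYC family factor, fell from 79.1 and 84.0 to 42.0 and 41.2 RPKM (log2 -0.96), and Ccnd1 and Ntn1 fell at -0.77 and -0.66.

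Of the 9 targets under the filter, 7 had both Hnrnpk siRNA libraries above both controls and 2 had both below, all at low levels. Some lay near the floor, such as Osr1 at 0 and 0 against 0.0135 and 0.00454 RPKM. The share of such genes among all genes under the filter was not computed, so nothing is read from this count. The clearest was Nkx2-2, the other homeobox gene of the most ventral neural progenitors, at 0.00840 and 0.0243 RPKM in the control pair and at 0.505 and 0.605 RPKM after Hnrnpk siRNA. Foxa2, a floor plate and endoderm factor, was at 0.0710 and 0.0346 against 0.311 and 0.383 RPKM. Nkx6-1, which is expressed beside Nkx2-2 in the neural tube, was below 0.05 RPKM in all 4 libraries.

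The other NK homeobox genes that could be tested went both ways. Of 12 besides Nkx2-9, 3 passed the filter, 1 called higher and 2 lower. With 67.2% of all genes tested called, nothing is read from a count of 3. Nkx6-2 rose from 3.63 and 3.31 to 6.68 and 8.02 RPKM (log2 0.98, SE 0.0988, limma adjusted p = 2.08e-05). Nkx2-4 fell from 1.24 and 1.11 to 0.381 and 0.469 RPKM (log2 -0.86, adjusted p = 5.90e-05), passing the filter only through its control level. Nkx2-5, the cardiac factor, was lower at -0.39 (adjusted p = 0.0110), but at -0.037 with GC trends removed and not called. Without Hnrnpk siRNA replicate 1 it was also not called, at -0.30 (limma adjusted p = 0.128). The remaining 9 stayed below 0.62 RPKM, so Nkx2-9 was the only one of these genes that reached 10 RPKM in any library. Of those 9, 6 had both Hnrnpk siRNA libraries above both controls, 0 had both below, and the rest overlapped. How often this occurs among all genes under the filter was not computed, so nothing is read from this count.

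The genes around Nkx2-9 on chromosome 12 were examined with the 5 nearest protein-coding genes of the table on each side, in the order of the GRCm38 annotation. The adjacent homeobox gene Nkx2-1, 74.5 kb away, was listed at 0 in both control libraries and at 0.0532 and 0.0758 RPKM after Hnrnpk siRNA. Pax9, 78.5 kb away on the other side, was at 0.0263 and 0.0260 against 0.0670 and 0.0768 RPKM. Both were higher in both Hnrnpk siRNA libraries and both stayed below 0.08 RPKM, far under the level of Nkx2-9. Slc25a21, next to Pax9, did not exceed 0.0162 RPKM.

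Farther out, 6 of the 10 neighbours passed the filter, 2 called higher and 2 lower. Their share called was 66.7%, near the 67.2% of all genes tested. Foxa1, an endoderm and floor plate factor 927.3 kb away, rose from 0.362 and 0.263 to 2.83 and 3.02 RPKM (log2 2.08, SE 0.1003, limma adjusted p = 2.98e-07), and passed the filter only through its level after Hnrnpk siRNA. Prps1l3 rose at 0.26. Ralgapa1 fell from 6.96 and 6.64 to 3.14 and 2.64 RPKM (log2 -1.11, SE 0.0927, adjusted p = 6.64e-06), and Mipol1 fell at -0.36, a call lost without Hnrnpk siRNA replicate 2 (-0.33, adjusted p = 0.0733). Mbip and Brms1l, between Nkx2-1 and Ralgapa1, were not called, at -0.066 and -0.075.

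**Figure D4:**
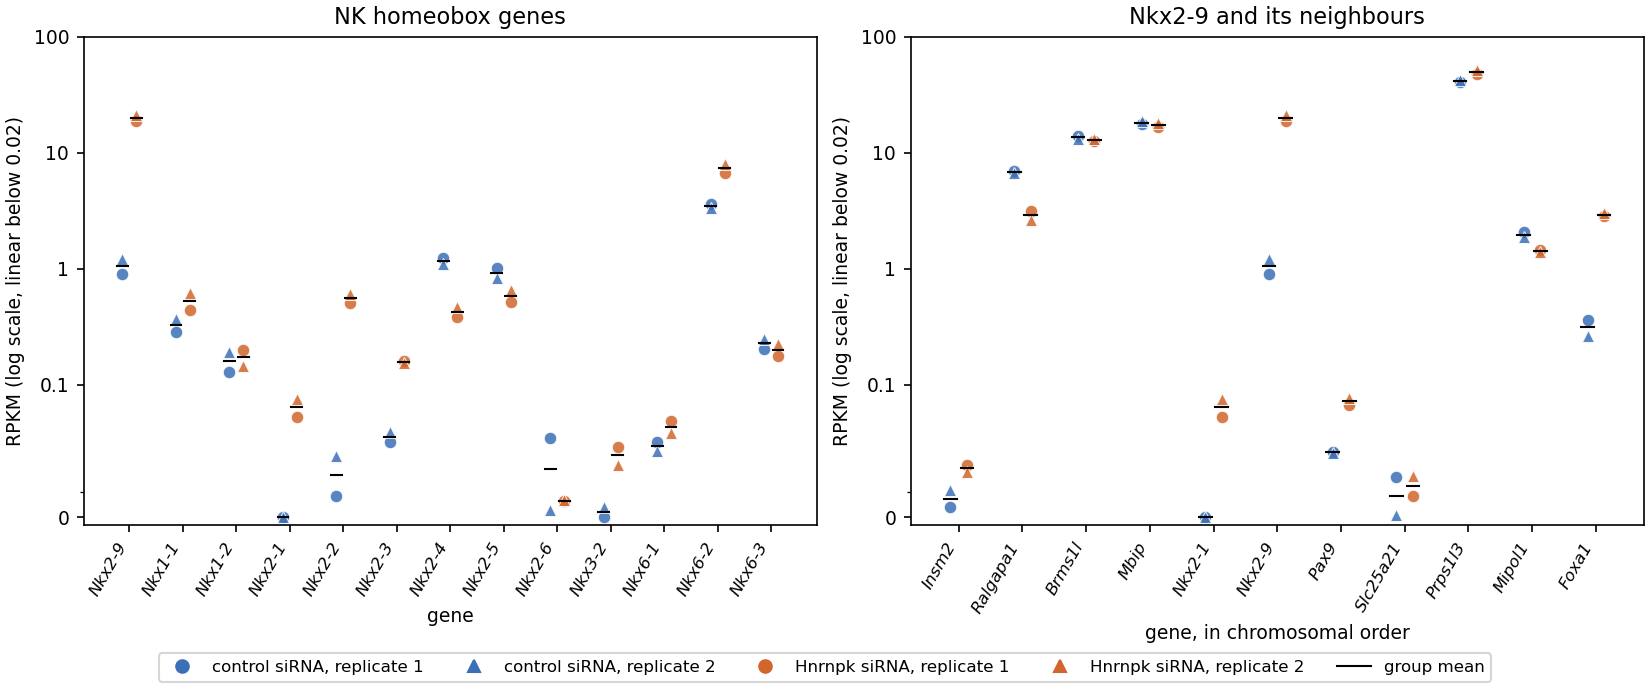
RPKM (log axis, linear below 0.02) in each library of Nkx2-9 with 12 other NK homeobox genes (left) and of Nkx2-9 between its 5 nearest protein-coding neighbours on each side, in chromosomal order (right); circles are replicate 1, triangles replicate 2 and black bars group means. Nkx2-9 stands at 18.8 and 21.0 RPKM after Hnrnpk siRNA, while the adjacent Nkx2-1 and Pax9 stay below 0.08 RPKM.

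Markers of other cell types were read beside these values. Of 12 neural and floor plate markers in the table, 6 passed the filter, 1 called higher and 5 lower. Their summed RPKM was 136 to 151 in the control libraries and 105 to 115 after Hnrnpk siRNA, and the neuronal genes Neurog2 and Dcx were below 0.02 RPKM in all libraries. Nkx2-9 therefore stood higher where the summed level of that list was lower, and no such marker is at 0 in all 4 libraries.

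Of 17 extraembryonic endoderm markers, 10 passed, and 8 were called higher and 0 lower, among them Pdgfra, which passed only through its level after Hnrnpk siRNA. Their sum was 170 to 172 RPKM in the control libraries and 303 to 317 after Hnrnpk siRNA, and Gata6 went from 0.721 and 0.565 to 13.7 and 14.1 RPKM. Those linked to visceral endoderm were low and mixed. Sox17 was at 0.157 and 0.144 RPKM with control siRNA against 0.821 and 0.805, Cubn at 0.294 and 0.383 against 0.553 and 0.687, and Hnf4a at 0.242 and 0.155 against 0.316 and 0.316. Amn was at 3.36 and 2.98 against 2.83 and 3.48 RPKM and was not called, and Afp and Ttr stayed below 0.02 RPKM. The part of these cells in the values of Ihh, Foxa1, Foxa2 and Nkx2-9 was not tested.

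The 12 two-cell stage markers in the table summed to 1.22 to 1.30 RPKM in the control libraries and 55.7 to 64.7 after Hnrnpk siRNA; the 10 that passed the filter did so only through their level after Hnrnpk siRNA, so their calls are not counted. All 6 tested trophectoderm markers of 9 were called higher, with sums of 37.5 to 41.9 and 86.4 to 90.2. Of the 8 primitive streak and mesoderm markers 4 passed, 2 higher and 1 lower, with sums of 4.91 to 5.005 and 8.11 to 8.13. The 10 fibroblast markers summed to 9.64 to 11.6 and 6.92 to 6.996 RPKM, with 1 of 4 tested higher and 2 lower. The embryonic stem cell list had 3 called higher and 3 lower of 10, a share of 60%. Of all genes tested, 67.2% were called, 32.2% higher and 35.0% lower, so nothing is read from the counts of these short lists. The part of any of these populations in the hedgehog values was not tested.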

How the data were processed

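RNA-seq of 4 libraries was analysed from 1 table that the authors deposited with RPKM per Ensembl gene and library. BWA, SAMtools and mm9 are named, without a role, in the submitters' processing notes; no source used here gives the counting tool, annotation or strandedness, and the labels' protocols call the RNA rRNA-depleted in one place and poly(A)-selected in another. Values were analysed as log2(RPKM + 0.5) for the 12486 genes whose mean over the 4 libraries reached 0.5 RPKM, with limma 3.58.1 in R 4.3.3 (mean-variance trend, two-sided moderated test, no block) and Benjamini-Hochberg adjustment over all of them. Log2 differences are Hnrnpk siRNA minus control siRNA. With 2 libraries a group, an exact permutation test of 1 gene cannot go below 0.333, so calls rest on the spread pooled across genes, and 8776 genes had an unadjusted p under 0.05. Where a symbol had several rows, the row with the highest mean was used. Gene order, exon overlap and GC content came from GENCODE M21 (92.8% of genes matched), shared transcript sequence from BLAST 2.17.0 at 95% identity over 100 bases or more, and relative depth from the commonest ratio of low values. The limma and depth procedures were tested on simulated data.

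The members and gene lists were chosen with earlier results of these data known, and some genes of these families are not reported here. Named genes are the 9 members, Hnrnpk, Setdb1, up to 5 called genes in each direction of each pathway list by size, NK homeobox genes and neighbours that passed the filter, and the 8 genes most like Nkx2-9; other genes are named for comparison. Alternatives were an added 0.1 or 1 RPKM, no filter or 1 RPKM, median-ratio scaling, quantile normalization, no trend, a replicate block, each library left out and, chosen after seeing the data, removal of GC trends.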

Additional observations from a re-analysis of the deposited data

How the results depend on the processing

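Over the 13 alternatives, Nkx2-9 lay between 3.35 and 4.12, Smo between -1.22 and -1.05, Gli3 between -0.78 and -0.63 and Ptch1 between -0.44 and -0.40 on the log2 scale, Gli2 between -0.29 and -0.076 and Gli1 between 0.081 and 0.31. None of the genes that the naming rule picked and that passed the filter changed sign in the alternatives that tested them; Shh, Ihh and Hhip are not among them. Members past the limma threshold are counted only to show the effect of a setting and support nothing, since the members were chosen on this contrast: 2 were higher without the filter (Ihh is then tested) and 2 with GC trends removed (Gli1), against 1. Without the filter, which adds low genes, called counts were 4 lower for production and reception, 9 higher for targets, 5 higher for NK genes and 4 higher for neighbours of Nkx2-9; at a mean of 1 RPKM, 0 NK genes were called lower, since Nkx6-2 alone was tested, and 1 production and reception gene was, since Gas1 was not tested. With GC trends removed, 1 NK gene was called lower. Transduction genes called higher numbered 5 under median-ratio scaling and 5 under quantile normalization. With 1 library left out, members past the threshold ran from 1 to 2 higher and from 3 to 4 lower, production and reception from 2 to 4 lower, transduction from 3 to 5 higher, and NK genes and neighbours each from 1 to 2 lower. Replicate numbers did not pair the libraries (correlation of deviations 0.027 across genes); with the replicate block, 4162 genes were called higher and 4460 lower against 4025 and 4371. Depth limits the reading of Shh, Ihh, Hhip and the low NK genes.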
